A study of Mus musculus with 12 samples.

Results

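Induced regulatory T cells (iTregs) of Gclc mutant mice were compared with iTregs of wild-type (WT) mice across all measured genes. Regulatory T cells (Tregs) are CD4 T cells that restrain other immune cells, and iTregs are made in culture by turning naive CD4 T cells into Tregs. The 6 iTreg libraries, 3 mutant (numbered 1, 2 and 4) and 3 WT (1, 2 and 3), are part of a set of 12. The other 6, from Tregs taken directly from the animals (nTregs) of both genotypes, entered the same model: they share in its gene filter, scaling and estimate of spread, and serve to test whether the genotype effect differed between the cell types. All mice were C57BL/6 and 8 weeks old, and the labels call the genotypes Gclc mutant and WT. Neither the allele, nor any Cre driver, nor the culture conditions and their length are given in the sources used here, so these limits of the model cannot be stated. The labels do not tell whether the 3 libraries of one genotype stem from different animals or cultures. The p-values then describe the spread among these libraries alone, part of which may be technical.

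Gclc is the catalytic chain of the enzyme glutamate-cysteine ligase, which joins glutamate and cysteine in the rate-limiting step of glutathione synthesis. Glutathione is the main small thiol that buffers reactive oxygen in cells. In culture, naive CD4 T cells become Foxp3-expressing Tregs when the T cell receptor is engaged in the presence of TGF-beta and interleukin 2, while other cytokines steer the same cells to helper fates. The transcription factor Foxp3 holds the Treg state and represses many helper cytokine genes.

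Counts summed to between 33534022 and 38020219 per iTreg library. Values are given as CPM, counts scaled to a common library size with TMM factors. Changes are log2 fold changes of mutant over WT, 3 libraries against 3. Their standard error (SE) was computed as the size of the change divided by the square root of F from edgeR's quasi-likelihood test. In the main model the spread behind it was estimated from all 12 libraries. A gene was called higher or lower when its adjusted p (Benjamini-Hochberg over all genes tested) was below 0.05. In bulk RNA, fewer cells of a type and less RNA per cell cannot be told apart.

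The targeted gene matched the labels. Gclc (ENSMUSG00000032350; GRCm38, chromosome 9, 77754535 to 77794485) stood at 56.5, 53.2 and 51.9 CPM in the WT libraries and at 18.8, 21.03 and 19.03 CPM in the mutant ones. The groups lay far apart and their members close together; the change was -1.46 ± 0.075 on the log2 scale (adjusted p = 1.64e-06). Which part of the transcript is missing in the mutant was not analysed here. Gclm, the regulatory partner of Gclc in the same enzyme, was at 252, 256 and 243 CPM in WT and 237, 227 and 289.8 CPM in mutant libraries, which overlapped (0.01 ± 0.14, adjusted p = 0.999).

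Of 17977 genes tested, 4561 (25.4%) were called, 2517 higher in the mutant (14%) and 2044 lower (11.4%). Most changes were small: 418 genes (2.33%) were at least 2-fold higher and 237 (1.32%) at least 2-fold lower, and the median size among called genes was 0.47 on the log2 scale. The CPM of the groups did not overlap for 46.5% of genes, so a lack of overlap alone sets few genes apart here. Scaling by library size alone in place of TMM called 1606 genes higher and 2921 lower, which turned the share of higher calls from 55.2% to 35.5%. With a filter of 1 CPM in 3 libraries the share was 45%, from 2041 higher and 2490 lower. No called gene was called in the other direction under these settings, so calls were gained or lost rather than turned. The 6 iTreg libraries fitted alone, with their own filter and scaling, tested 16150 genes and called 2869 higher and 2805 lower. Without nTreg mutant 1, which stood apart by markers of other cells (below), 3164 were called higher and 3096 lower.

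The base composition of the genes moved with the genotype. Among the decile of genes with the lowest GC content (17.1% to 42%), 449 were called higher and 38 lower, with a median log2 fold change of 0.19. In the decile with the highest (57.5% to 85.7%), 37 were called higher and 596 lower, with a median of -0.28. Every WT library showed the opposite tilt from every mutant library: the lowest decile minus the highest, each library set against the mean of the 6, was -0.31, -0.25 and -0.20 in WT and 0.30, 0.39 and 0.061 in mutant libraries. The tilt was weakest in mutant 4. In the nTregs the medians ran the other way, from -0.060 in the lowest decile to 0.11 in the highest. A fit that took out a smooth GC trend per library (a GC offset, chosen after seeing the data) called 3160 genes, 1729 higher and 1431 lower. It kept 2420 of the 4561 calls and reversed none, and its lowest and highest deciles held 148 and 168 higher and 117 and 180 lower calls. Whether the GC trend comes from the library preparation or from the cells was not tested, so counts with the offset are given beside the gene groups below.

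**Figure D1:**
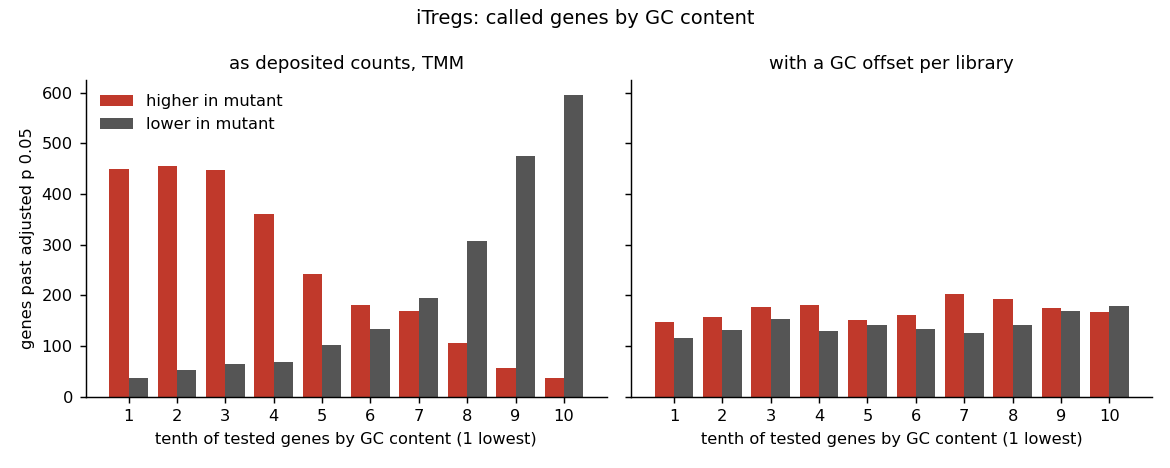
Number of genes called higher (red) and lower (grey) in mutant iTregs (vertical axis) in each decile of tested genes by GC content (horizontal axis, 1 lowest), for the counts as deposited (left) and with a GC offset per library (right). On the left, higher calls fall from 449 to 37 and lower calls rise from 38 to 596; on the right, the lowest decile has 148 and 117 and the highest 168 and 180.

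Libraries within a group were not equally alike. On the first principal component (55.6% of variance) WT lay at 41.36, 35.88 and 15.79 and the mutant at -33.29, -24.26 and -35.49, so WT 3 was the WT library nearest to the mutant. The second (17.8%) set mutant 4 apart at -35.03 from the other mutant libraries at 20.39 and 18.04. Without WT 1 or WT 2, which leaves WT 3 with a single partner, 1770 and 2039 genes were called. Without mutant 1 or mutant 2, 2340 and 2848 were called. In these fits, in the same order, 773, 941, 1163 and 1474 of the called genes were higher. The lower calls of these fits were 997, 1098, 1177 and 1374. Without iTreg mutant 4 or WT 3, 2184 and 2297 were higher and 1859 and 1918 lower. Without nTreg mutant 2 or mutant 4, 2636 and 2363 were higher and 2153 and 2084 lower. Without nTreg WT 1, WT 2 or WT 3, 2153, 2070 and 2121 were higher and 1849, 1802 and 1972 lower. List counts below with a library left out stand beside the totals of the same fit, not beside those of the full fit. Both patterns show in many genes below, with WT 3 shifted toward the mutant and mutant 4 either more extreme or less.

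Foxp3 (chromosome X) was at 300.4, 287 and 291 CPM in WT and 107, 96.4 and 75.5 CPM in mutant iTregs. It fell by 1.66 ± 0.15 on the log2 scale (adjusted p = 0.000188), and the mutant libraries all lay far below the WT ones. With the GC offset the value was -1.42. Among 29 tested genes of a Treg core list, 10 were higher and 7 lower, with a median of 0.20 against 0.036 over all genes (4 higher and 4 lower and a median of 0.12 with the GC offset; a median of 0 without iTreg mutant 4). Members went both ways. Il10ra, the ligand-binding chain of the interleukin 10 receptor, went from 37, 31.8 and 31.02 CPM to 17.8, 21.6 and 16.4 CPM (-0.84 ± 0.10, adjusted p = 0.000533). Ecm1, a secreted matrix protein, changed by -0.90 ± 0.12 (adjusted p = 0.000866). In the other direction, Tigit, an inhibitory receptor of Tregs and activated T cells, was at 2.19, 2.23 and 2.405 CPM in WT and 6.47, 5.87 and 6.41 CPM in the mutant, a tight rise of 1.46 ± 0.12 (adjusted p = 0.000132). Penk, which encodes the precursor of enkephalins, went from 1.02, 0.658 and 0.973 CPM to 4.79, 4.74 and 14.5 CPM, with mutant 4 far above the other mutant libraries (3.18 ± 0.45, adjusted p = 0.000961). Il2ra, the alpha chain of the interleukin 2 receptor (CD25), was at 1268, 1238 and 1384 CPM in WT and 1698, 1566 and 1550 CPM in the mutant, a change of 0.31 ± 0.071 (adjusted p = 0.0098) that was 0.15 with the GC offset (adjusted p = 0.133). The call of Il2ra was lost without iTreg WT 1 (adjusted p = 0.0554) and iTreg WT 2 (adjusted p = 0.0563). The count of higher Treg core genes was 3 without iTreg WT 1 and 4 without iTreg WT 2.

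Of 25 tested genes of suppression, 4 were higher and 0 lower by edgeR (1 at an unadjusted p below 0.05 and 1 by DESeq2; 7 higher and 0 lower with the GC offset; 2 without iTreg WT 1, 1 without iTreg WT 2 and 7 without nTreg mutant 1). Over all genes tested, 14% were called higher and 11.4% lower. Pdcd1lg2, a ligand of the inhibitory receptor PD-1, rose from 17.5, 17.1 and 19.97 CPM to 24, 25.8 and 30.8 CPM (0.56 ± 0.095, adjusted p = 0.00235). Maf, a transcription factor that drives interleukin 10 in several T cell types, rose by 0.75 ± 0.19 (adjusted p = 0.0153), with mutant 4 at 61.1 CPM closest to WT. The call of Maf was lost without iTreg mutant 1 (adjusted p = 0.0709) and iTreg WT 2 (adjusted p = 0.0514). For genes of suppression, the lower count was 1 without iTreg WT 3 or nTreg mutant 1. In genes of suppression, there were 9 higher and 1 lower in the iTreg libraries alone.

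Of 26 tested TGF-beta response genes, 2 were higher and 6 lower, with a median of -0.17 (3 higher and 3 lower with the GC offset). The activity of the pathway itself was not measured. Tgfbr2, the ligand-binding receptor, went from 197, 177 and 156 CPM in WT to 117, 125 and 114 CPM in the mutant (-0.57 ± 0.092, adjusted p = 0.0018). Smad7, an inhibitor that TGF-beta signalling itself induces, fell from 49.4, 48.6 and 38.8 CPM to 25.03, 29.9 and 24.9 CPM (-0.78 ± 0.12, adjusted p = 0.00188). Id3, an inhibitor of E-protein transcription factors, fell from 13.1, 12.2 and 12.4 CPM to 5.38, 5.71 and 8.01 CPM (-0.98 ± 0.21, adjusted p = 0.00734). All 3 of these genes kept their calls with the GC offset (-0.55, -0.55 and -0.82 on the log2 scale). Acvr1c, the activin receptor ALK7 and one of the 12 largest decreases, was at 17.96, 14.3 and 11.3 CPM in WT and 3.32, 5.96 and 3.52 CPM in the mutant (-1.76 ± 0.39, adjusted p = 0.00755). The list's count of higher genes was 0 without iTreg mutant 1, iTreg mutant 2, iTreg WT 1 or iTreg WT 2 and 1 without iTreg mutant 4.

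Downstream of interleukin 2, 5 of 28 listed genes were higher and 5 lower, against 14% and 11.4% of all genes (3 higher and 2 lower with the GC offset). For these listed genes, the higher count was 2 without iTreg mutant 1, 1 without iTreg WT 1 and 0 without iTreg WT 2. In these genes, the lower count was 2 without iTreg mutant 1, iTreg WT 1 or iTreg WT 2, 10 without nTreg mutant 1 and 3 without nTreg WT 1 or nTreg WT 2. Among these genes, there were 3 higher and 9 lower with library size alone and 6 higher and 9 lower in the iTreg libraries alone. Stat5b, the transcription factor that carries this signal, fell from 221, 215 and 189 CPM to 161, 147 and 159 CPM (-0.42 ± 0.077, adjusted p = 0.00341, and -0.27 with the GC offset). Jak3, the kinase bound to the common gamma chain, was called lower at -0.38 ± 0.085 (adjusted p = 0.00852), but the value was -0.01 with the GC offset (adjusted p = 0.894).

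Of 25 tested genes of resting and lymphoid-homing T cells, 0 were higher by edgeR and 12 lower, with a median of -0.29 (higher: 1 at an unadjusted p below 0.05 and 0 by DESeq2; 0 higher and 11 lower with the GC offset, a median of -0.34). With 1 library left out the lower count stayed within 8 and 16, and 1 gene was called higher without nTreg mutant 1 or nTreg mutant 4, and in the iTreg libraries alone. Klf2, a transcription factor of quiescent T cells that sustains homing receptors, was at 50.6, 48.98 and 41.6 CPM in WT and 19.97, 23.3 and 15.4 CPM in the mutant (-1.27 ± 0.15, adjusted p = 0.000531). S1pr1, the receptor that lets T cells leave lymph nodes, went from 141, 122 and 111 CPM to 80.95, 89.3 and 70.8 CPM (-0.63 ± 0.11, adjusted p = 0.00241). In both genes mutant 4 was the lowest library. Cd27, a co-stimulatory receptor of the TNF receptor family, fell from 74.9, 66.5 and 62.9 CPM to 30.9, 36.7 and 27.6 CPM (-1.10 ± 0.11, adjusted p = 0.000236), and Rasgrp2, which activates the integrin regulator Rap1, from 48.04, 42.2 and 35.1 CPM to 12.97, 17.3 and 10.1 CPM (-1.64 ± 0.17, adjusted p = 0.000244). S1pr4, another sphingosine phosphate receptor, changed by -0.81 ± 0.093 (adjusted p = 0.000374), and by -0.49 with the GC offset.

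Of 35 tested helper T cell cytokine and chemokine genes, 17 were higher and 2 lower, with 16 not called and a median of 0.92 (13 higher and 1 lower with the GC offset). Ccl20, a chemokine of Th17-type cells, was at 6.41, 5.33 and 6.49 CPM in WT and 19.6, 20.5 and 38.1 CPM in the mutant (2.10 ± 0.36, adjusted p = 0.00235). Il9, interleukin 9, was at 4.101, 3.18 and 5.92 CPM in WT and 13.2, 10.3 and 17.8 CPM in the mutant (1.65 ± 0.26, adjusted p = 0.00247). Csf2, which encodes GM-CSF, was at 1.47, 2.12 and 2.73 CPM in WT and 4.76, 4.802 and 18.03 CPM in the mutant (2.12 ± 0.58, adjusted p = 0.0198). For all 3 the highest library was mutant 4, and for Csf2 that library stood alone, the change without it being 1.18. The call of Csf2 was lost without iTreg mutant 4 (adjusted p = 0.105), iTreg WT 1 (adjusted p = 0.0915) and iTreg WT 2 (adjusted p = 0.0722). Ltb, lymphotoxin beta, which resting lymphocytes make, went against the list, from 122, 119.5 and 126 CPM to 67.7, 76.8 and 62.98 CPM (-0.83 ± 0.084, adjusted p = 0.000244, and -0.40 with the GC offset). The higher count of the list was 6 without iTreg WT 1 and 7 without iTreg WT 2, and its lower count was 1 without iTreg mutant 1, iTreg mutant 2, iTreg mutant 4, iTreg WT 1, iTreg WT 2, nTreg WT 1, nTreg WT 2 or nTreg WT 3. The iTreg libraries alone tested 29 of them and called 18 higher and 3 lower.

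Among regulators of the helper fates, 6 of 36 were higher and 2 lower (5 higher and 2 lower with the GC offset; higher 3 without iTreg mutant 1 or iTreg WT 1). The shares over all genes were 14% higher and 11.4% lower. Il18r1, a receptor chain for interleukin 18, rose from 83.3, 84.1 and 90.4 CPM to 121, 149 and 181 CPM (0.81 ± 0.14, adjusted p = 0.00272). For these regulators, the lower count was 1 without iTreg mutant 1, iTreg WT 1 or iTreg WT 2 and 5 without nTreg mutant 1. In these regulators, there were 10 higher and 4 lower in the iTreg libraries alone.

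Among co-receptors and TNF receptors, 10 of 33 were higher and 6 lower (6 higher and 5 lower with the GC offset; higher 6 without iTreg mutant 4, 4 without iTreg WT 1 and 5 without iTreg WT 2). Cd86, a ligand of CD28 and CTLA4 that activated T cells can make, was at 2.06, 2.23 and 2.59 CPM in WT and 6.09, 6.03 and 5.71 CPM in the mutant (1.37 ± 0.13, adjusted p = 0.000236). Cd226, the activating counterpart of Tigit that shares its ligand, rose from 47.5, 49.98 and 55.5 CPM to 79.7, 79.1 and 95.8 CPM (0.73 ± 0.10, adjusted p = 0.000961). Tigit and Cd226 thus were both higher, Tigit by the larger log2 fold change. For these receptors, there were 6 higher and 6 lower with library size alone.

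Carmil2, Rasa3, Pip5k1c and Sla were named for their small p-values, and their roles are given as background. Carmil2, an actin regulator needed for CD28 co-stimulation, fell from 172, 172 and 159 CPM to 108, 107 and 111 CPM (-0.63 ± 0.07, adjusted p = 0.000358). Rasa3, which switches off Ras and Rap1, fell from 272, 265 and 212 CPM to 122, 145 and 115 CPM (-0.97 ± 0.12, adjusted p = 0.000454), and Pip5k1c, which makes the lipid PIP2, changed by -0.78 ± 0.087 (adjusted p = 0.000346). Sla, an adaptor that dampens receptor signalling, rose instead, from 76.8, 83.9 and 96.9 CPM to 157, 139.8 and 181 CPM (0.89 ± 0.10, adjusted p = 0.000361). With the GC offset all 4 kept their calls, at -0.29, -0.81, -0.41 and 0.78, so Carmil2 and Pip5k1c shrank by more than 1.5 times. Of 36 genes that respond to the receptor, 3 were higher and 6 lower (4 higher and 2 lower with the GC offset; lower 1 without iTreg mutant 1 or iTreg WT 2, 3 without iTreg mutant 2, 10 without iTreg mutant 4, 2 without iTreg WT 1 and 12 without nTreg mutant 1), against 14% and 11.4% of all genes. Zfp36, which destabilizes cytokine mRNAs, fell from 31.6, 32.4 and 30.4 CPM to 20.6, 22.1 and 17.9 CPM (-0.64 ± 0.11, adjusted p = 0.00236). For the receptor response genes, the higher count was 1 without iTreg mutant 4, iTreg WT 1 or iTreg WT 2. In the receptor response genes, there were 4 higher and 12 lower in the iTreg libraries alone.

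**Figure D2:**
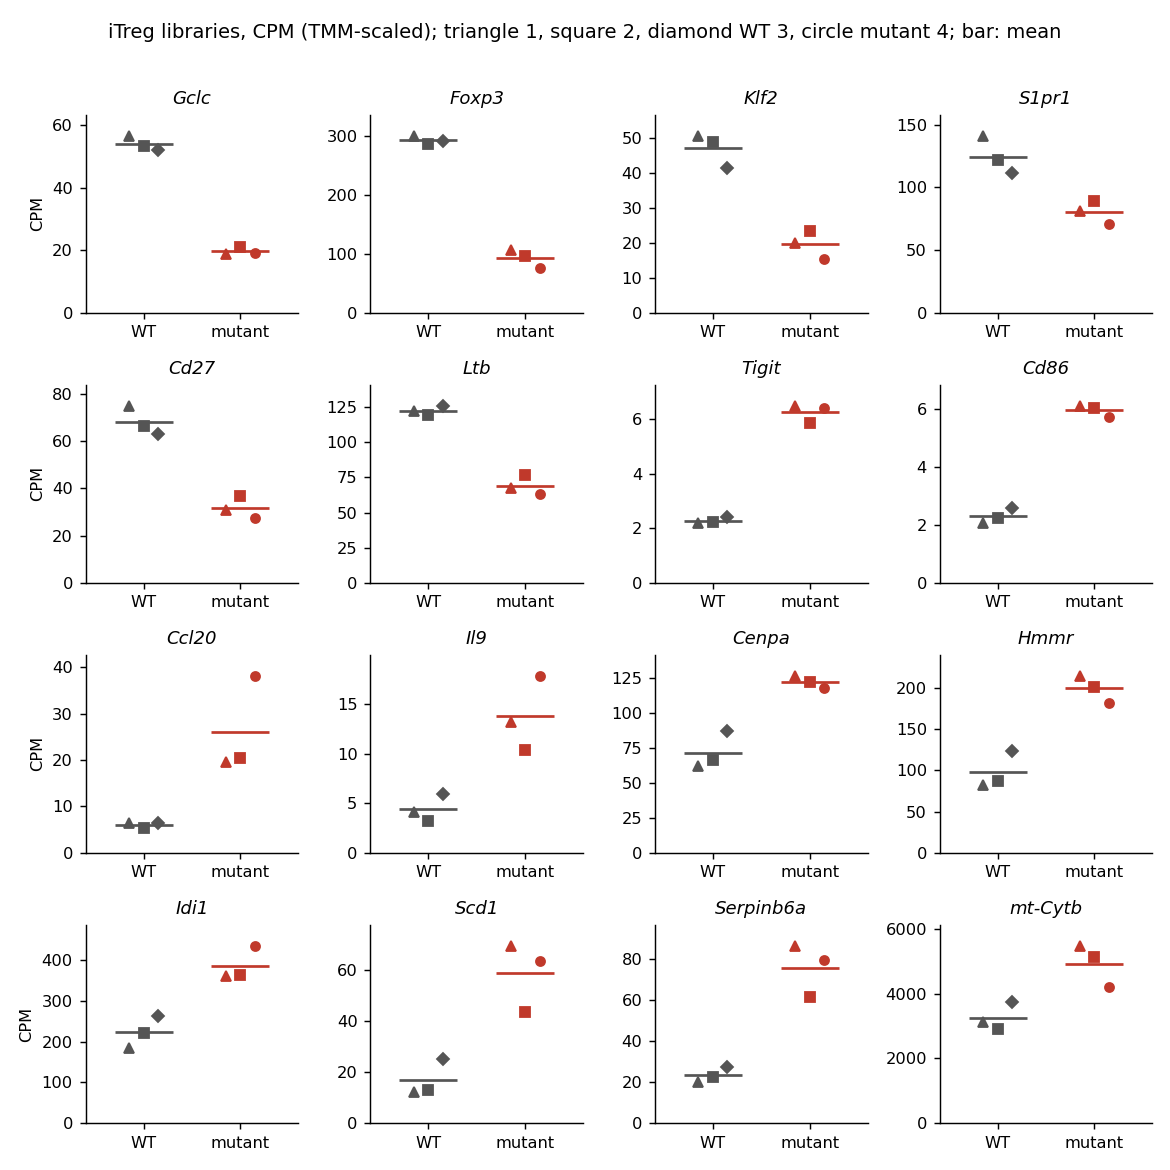
CPM (vertical axes, each from 0) of 16 genes in the 3 WT (grey) and 3 mutant (red) iTreg libraries, with a marker for each library number and a bar at the group mean. In all 16 the groups stand apart; for Cenpa, Hmmr, Idi1 and Scd1 the WT library nearest to the mutant is WT 3 (diamond), and for Ccl20 and Il9 the highest library is mutant 4 (circle).

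Most genes of mitosis were called higher. Of 40 tested, 30 were called higher and 0 lower by edgeR, with a median of 0.72 (lower: 0 at an unadjusted p below 0.05 and 0 by DESeq2; 21 higher and 0 lower with the GC offset, a median of 0.59). Their summed level was 4380, 4743 and 6633 CPM in WT and 8801, 8925 and 7647 CPM in mutant libraries. WT 3 lay between the other WT libraries and the mutant, and mutant 4 was the lowest mutant library. The higher count was 7 without iTreg mutant 1, 11 without iTreg mutant 2 and 2 without iTreg WT 1 or iTreg WT 2, and 35 in the iTreg libraries fitted alone. Cenpa, the histone H3 variant that marks centromeres, was at 61.9, 65.99 and 86.9 CPM in WT and 126, 122 and 118 CPM in the mutant (0.77 ± 0.14, adjusted p = 0.00345). Hmmr, a spindle protein, was at 82.6, 86.6 and 124 CPM in WT and 214, 202 and 182 CPM in the mutant (1.03 ± 0.21, adjusted p = 0.00594). Both calls held with any 1 library left out, although WT 3 was raised for both. Cenpe, a kinetochore motor, rose by 0.90 ± 0.21 (adjusted p = 0.0104), and Ect2, which sets the cleavage furrow, by 0.87 ± 0.21 (adjusted p = 0.011). The call of Cenpe was lost without iTreg WT 1 (adjusted p = 0.0599) and iTreg WT 2 (adjusted p = 0.052). The call of Ect2 was lost without iTreg WT 1 (adjusted p = 0.0628) and iTreg WT 2 (adjusted p = 0.0507).

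The promoters of the mitosis genes were searched for CCAAT, the core of the motif bound by NF-Y. The window read was the 150 bases before the annotated start (RefSeq, GRCm38.p6), and either strand counted. CCAAT was found in 25 of the 33 mitosis genes that matched a promoter (75.8%), against 28.7% of the 10704 tested genes with a promoter and 25.3% of all 27025 promoters. Among called genes the share was 31.4% for those higher in the mutant and 27.6% for those lower. TTTGAA (either strand), part of the cell cycle homology region, was found in 10 of the 33 mitosis promoters (30.3%) and in 5.47% of tested genes with a promoter. The 3 promoters below, of Cenpa, Hmmr and Cenpe, are examples that hold a match, and that of Ect2 is not shown. CCAAT or its reverse complement ATTGG is in capitals:
Cenpa (chr5:30666736-30666885, plus strand): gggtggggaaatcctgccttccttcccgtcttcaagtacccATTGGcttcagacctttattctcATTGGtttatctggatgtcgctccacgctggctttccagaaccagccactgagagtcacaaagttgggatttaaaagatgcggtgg
Hmmr (chr11:40733438-40733587, minus strand): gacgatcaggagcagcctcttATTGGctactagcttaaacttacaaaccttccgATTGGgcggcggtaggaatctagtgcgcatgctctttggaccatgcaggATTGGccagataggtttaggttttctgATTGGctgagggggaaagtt
Cenpe (chr3:135212413-135212562, plus strand): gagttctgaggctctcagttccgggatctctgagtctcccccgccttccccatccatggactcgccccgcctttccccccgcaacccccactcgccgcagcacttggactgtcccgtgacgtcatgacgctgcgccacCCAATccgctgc
Hmmr had 4 matches in this window, Cenpa 2 and Cenpe 1. A match is a description of letters, not of binding.

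Of 43 DNA replication genes, 7 were called higher and 2 lower, against 14% and 11.4% of all genes (1 higher and 0 lower with the GC offset, 2 higher and 3 lower with library size alone). The median was 0.27, and the higher count was 1 without iTreg mutant 1, 0 without iTreg mutant 2, iTreg WT 1 or iTreg WT 2, 23 without nTreg mutant 1, 2 without nTreg WT 1 or nTreg WT 2 and 3 without nTreg WT 3, and 21 in the iTreg libraries fitted alone. Ccne2, a cyclin that starts replication, was at 46.5, 54.9 and 62.2 CPM in WT and 96.1, 101 and 92.5 CPM in the mutant (0.82 ± 0.21, adjusted p = 0.0162). The call of Ccne2 was lost without iTreg mutant 2 (adjusted p = 0.0501), iTreg WT 1 (adjusted p = 0.0822) and iTreg WT 2 (adjusted p = 0.0584). Pold1, the catalytic subunit of DNA polymerase delta, went the other way at -0.32 ± 0.088 (adjusted p = 0.0201), but stood at 0.039 with the GC offset (adjusted p = 0.757). The call of Pold1 was lost without iTreg mutant 1 (adjusted p = 0.0685), iTreg mutant 2 (adjusted p = 0.0708), iTreg WT 2 (adjusted p = 0.0687) and iTreg WT 3 (adjusted p = 0.0551). For replication genes, the lower count was 0 without iTreg mutant 1, iTreg mutant 2, iTreg WT 2 or iTreg WT 3, 1 without iTreg WT 1, nTreg mutant 2, nTreg WT 1, nTreg WT 2 or nTreg WT 3 and 4 without nTreg mutant 1.

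Targets of p53 and inhibitors of the cell cycle were also mostly higher among those called, 9 of 32 against 1 lower (8 higher and 1 lower with the GC offset; 4 without iTreg WT 1). Ccng1, a cyclin that p53 induces, was at 344, 417 and 461 CPM in WT and 584, 578 and 603 CPM in the mutant (0.53 ± 0.099, adjusted p = 0.00369). Perp, a membrane protein of p53-dependent apoptosis, was at 5.99, 8.36 and 12.9 CPM in WT and 27.1, 24.6 and 49.8 CPM in the mutant (1.89 ± 0.39, adjusted p = 0.00601), with mutant 4 highest and WT 3 the highest WT library. Pmaip1, the death-promoting BH3 protein Noxa, rose by 1.002 ± 0.23 (adjusted p = 0.00855). The call of Pmaip1 was lost without iTreg WT 1 (adjusted p = 0.0518). In the BCL2 family, 5 of 18 genes were higher and 1 lower (2 higher and 2 lower with the GC offset). The survival gene Bcl2l2 rose from 12.3, 12.8 and 13.1 CPM to 21.5, 17.98 and 23.4 CPM (0.72 ± 0.12, adjusted p = 0.00229), and the death gene Bcl2l11 (Bim) fell from 62.95, 62.1 and 50.6 CPM to 34.1, 42.6 and 35.4 CPM (-0.65 ± 0.14, adjusted p = 0.00771). For the BCL2 family, the higher count was 3 without iTreg mutant 4, 1 without iTreg WT 1 and 2 without iTreg WT 2. In the BCL2 family, the lower count was 2 without iTreg mutant 4, 4 without nTreg mutant 1 and 3 without nTreg mutant 4. Among the BCL2 family, there were 4 higher and 3 lower with library size alone and 5 higher and 4 lower in the iTreg libraries alone. For the p53 and cell cycle inhibitor list, the lower count was 0 without iTreg mutant 1, iTreg mutant 2, iTreg WT 2 or nTreg WT 2, 2 without iTreg mutant 4 and 3 without nTreg mutant 1. In the p53 and cell cycle inhibitor list, there were 9 higher and 3 lower in the iTreg libraries alone.

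Sterol synthesis genes were higher in the larger part of those called, 12 of 26 against 4 lower (median 0.20; 13 higher and 2 lower with the GC offset). With 1 library left out the higher count stayed within 9 and 13, and the lower count was 2 without iTreg mutant 2. Idi1, which isomerizes the building block of isoprenoids, was at 184, 222 and 264 CPM in WT and 361, 364 and 435 CPM in the mutant (0.79 ± 0.14, adjusted p = 0.00327). Cyp51, the lanosterol demethylase, was at 136, 143 and 159 CPM in WT and 214, 199.5 and 181 CPM in the mutant (0.44 ± 0.075, adjusted p = 0.00232). Both enzymes rose while Scap went the other way. Scap, the sterol-sensing chaperone that lets the transcription factor SREBP reach the Golgi, fell from 65.2, 65.1 and 64.9 CPM to 45.1, 47.7 and 50.5 CPM (-0.45 ± 0.067, adjusted p = 0.00135, and -0.24 with the GC offset). CCAAT stood in 15 of the 19 sterol synthesis promoters matched (78.9%), by the same search. The promoters of Idi1 and Cyp51 are shown as examples that hold a match, and that of Scap is not shown:
Idi1 (chr13:8885456-8885605, plus strand): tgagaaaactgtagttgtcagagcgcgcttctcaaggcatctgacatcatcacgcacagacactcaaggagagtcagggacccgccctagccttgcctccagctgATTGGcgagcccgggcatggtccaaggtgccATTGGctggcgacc
Cyp51 (chr5:4104698-4104847, minus strand): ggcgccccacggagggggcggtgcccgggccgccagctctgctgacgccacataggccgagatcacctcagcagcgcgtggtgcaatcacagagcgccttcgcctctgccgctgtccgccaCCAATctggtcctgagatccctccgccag
For comparison, CCAAT stood in 5 of 21 promoters of resting and homing genes (23.8%) and in 7 of 28 of helper cytokine genes (25%), both near the share of tested genes. It stood in 19 of 34 promoters of DNA replication genes (55.9%), above that share, and in 5 of 15 of TGF-beta response genes (33.3%).

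In sterol export, 2 of 10 genes were higher and 2 lower, against 14% and 11.4% of all genes (2 higher and 2 lower with the GC offset). For sterol export genes, the higher count was 1 without iTreg mutant 1, iTreg mutant 2, iTreg WT 2, nTreg WT 1 or nTreg WT 2 and 0 without iTreg WT 1. In sterol export genes, the lower count was 4 without nTreg mutant 1. Among sterol export genes, there were 1 higher and 3 lower with library size alone and 2 higher and 4 lower in the iTreg libraries alone. Abca1, which loads cholesterol onto lipoproteins, was at 10.7, 11.4 and 13.6 CPM in WT and 27.6, 23.3 and 16.2 CPM in the mutant (0.91 ± 0.21, adjusted p = 0.00966), with mutant 4 near WT. The call of Abca1 was lost without iTreg WT 1 (adjusted p = 0.0518). Its relative Abca7 fell from 79.9, 72.9 and 65.8 CPM to 40.5, 41.8 and 45.6 CPM (-0.77 ± 0.096, adjusted p = 0.000543, and -0.47 with the GC offset).

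In fatty acid synthesis 3 of 19 genes were higher and 2 lower, against 14% and 11.4% of all genes (3 higher and 1 lower with the GC offset). Its desaturases rose. Scd1, which makes oleate from stearate, was at 12.2, 12.8 and 25.1 CPM in WT and 69.3, 43.4 and 63.4 CPM in the mutant (1.81 ± 0.28, adjusted p = 0.00148). Scd2, the other desaturase, was at 211, 224 and 329.7 CPM in WT and 636, 452 and 466 CPM in the mutant (1.02 ± 0.17, adjusted p = 0.00192). WT 3 was the highest WT library for both. Fasn, which makes the saturated chain, was called lower at -0.28 ± 0.072 (adjusted p = 0.0142) and stood at -0.003 with the GC offset (adjusted p = 0.993). The call of Fasn was lost without iTreg mutant 1 (adjusted p = 0.067), iTreg mutant 2 (adjusted p = 0.0525) and iTreg WT 1 (adjusted p = 0.053). On the side of uptake and oxidation, where 6 of 22 were higher and 3 lower (5 higher and 1 lower with the GC offset; 3 without iTreg WT 1 or iTreg WT 2 higher), the fatty acid receptor Cd36 was at 1.44, 0.716 and 1.41 CPM in WT and 4.88, 6.53 and 11.3 CPM in the mutant (2.67 ± 0.43, adjusted p = 0.0019). Fabp5, which carries fatty acids in the cell, rose from 35.2, 34.5 and 46.9 CPM to 66.7, 66.2 and 75 CPM (0.83 ± 0.14, adjusted p = 0.00208). Abcd3, which brings fatty acids into peroxisomes, rose from 32.3, 36.8 and 35.05 CPM to 55.7, 54.1 and 64.3 CPM (0.74 ± 0.081, adjusted p = 0.000315). For fatty acid synthesis, the lower count was 0 without iTreg mutant 1 or iTreg WT 1, 1 without iTreg mutant 2 and 5 without nTreg mutant 1. In fatty acid synthesis, there were 2 higher and 4 lower with library size alone and 3 higher and 4 lower in the iTreg libraries alone. For fatty acid uptake and oxidation, the lower count was 0 without iTreg mutant 1, iTreg WT 1 or iTreg WT 2 and 1 without iTreg mutant 2.

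In the glutathione list 3 of 32 genes were higher and 3 lower, Gclc among the latter (7 higher and 2 lower with the GC offset, and 1 higher without iTreg WT 1 or iTreg WT 2). For this list and the next, the shares over all genes were 14% higher and 11.4% lower. Glo1, which uses glutathione to detoxify methylglyoxal, rose from 51.5, 48.7 and 52.6 CPM to 68.3, 67.6 and 65.3 CPM (0.40 ± 0.059, adjusted p = 0.00126). Oplah, which recovers glutamate from 5-oxoproline, a product of glutathione turnover, fell from 2.15, 2.38 and 1.78 CPM to 0.971, 1.19 and 0.941 CPM (-1.02 ± 0.18, adjusted p = 0.00313). Of 31 genes of the NRF2 and thioredoxin systems, 4 were higher and 5 lower (6 higher and 4 lower with the GC offset). Bach1, the repressor of NRF2 target genes, fell from 28.6, 27.3 and 23.7 CPM to 14.9, 16.7 and 12.9 CPM (-0.84 ± 0.10, adjusted p = 0.000536). Prdx4, a peroxiredoxin of the endoplasmic reticulum, rose from 28.5, 26.02 and 34.5 CPM to 47.5, 42.05 and 42.4 CPM (0.57 ± 0.12, adjusted p = 0.00533), and Srxn1, which repairs over-oxidized peroxiredoxins, from 1.23, 1.23 and 1.51 CPM to 2.09, 2.67 and 3.703 CPM (1.09 ± 0.23, adjusted p = 0.00705). Ftl1, the light chain of the iron store ferritin, fell instead (-0.60 ± 0.10, adjusted p = 0.00237, and -0.33 with the GC offset). For the glutathione list, the lower count was 5 without nTreg mutant 1. For the NRF2 and thioredoxin list, the higher count was 2 without iTreg mutant 4, iTreg WT 1 or iTreg WT 2, 9 without nTreg mutant 1 and 7 without nTreg mutant 2. In the NRF2 and thioredoxin list, the lower count was 2 without iTreg mutant 1 or iTreg WT 1, 3 without iTreg mutant 2 or iTreg WT 3 and 8 without nTreg mutant 1. Among the NRF2 and thioredoxin list, there were 2 higher and 7 lower with library size alone and 8 higher and 7 lower in the iTreg libraries alone.

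Serine and one-carbon metabolism, named in the study's title, had 7 of 31 genes higher and 1 lower (3 higher and 0 lower with the GC offset, 4 higher and 3 lower with library size alone). The higher count was 4 without iTreg mutant 1, iTreg mutant 2, iTreg WT 2 or nTreg WT 2 and 2 without iTreg WT 1. Psat1, which makes the precursor of serine, was at 132, 137 and 143 CPM in WT and 182, 176 and 177 CPM in the mutant (0.38 ± 0.089, adjusted p = 0.0107). The call of Psat1 was lost without iTreg WT 1 (adjusted p = 0.0613). Shmt2, which takes the carbon of serine into mitochondrial folate, was lower, from 122, 119 and 96.5 CPM to 75.3, 77.99 and 86.8 CPM (-0.49 ± 0.10, adjusted p = 0.00661), a call that the GC offset did not keep (-0.22, adjusted p = 0.147). Cth, which makes cysteine from cystathionine, was at 0.868, 0.945 and 0.811 CPM in WT and 1.82, 1.695 and 3.88 CPM in the mutant (1.49 ± 0.35, adjusted p = 0.00988), with mutant 4 highest. Among targets of ATF4, the transcription factor of amino acid stress, 4 of 33 were higher and 4 lower (4 higher and 1 lower with the GC offset). For both lists of this paragraph, the shares over all genes were 14% higher and 11.4% lower. Nupr1, a small stress-induced nuclear protein, rose from 8.11, 9.42 and 11.7 CPM to 23.7, 17.1 and 23.7 CPM (1.14 ± 0.19, adjusted p = 0.00204). Asns, asparagine synthetase, rose from 9.79, 11.3 and 10.5 CPM to 14.4, 15.4 and 16.7 CPM (0.55 ± 0.14, adjusted p = 0.0153). The call of Asns was lost without iTreg WT 1 (adjusted p = 0.079). For serine and one-carbon genes, the lower count was 4 without iTreg mutant 4, 3 without nTreg mutant 1 and 2 without nTreg mutant 2. In serine and one-carbon genes, there were 9 higher and 3 lower in the iTreg libraries alone. For ATF4 targets, the higher count was 2 without iTreg WT 1. In ATF4 targets, the lower count was 0 without iTreg mutant 1, iTreg mutant 2, iTreg WT 1 or iTreg WT 2 and 9 without nTreg mutant 1. Among ATF4 targets, there were 4 higher and 7 lower with library size alone.

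The 13 genes encoded by mitochondrial DNA were all positive in log2 fold change, and 10 were called higher (median 0.40). These AT-rich genes kept 2 calls with the GC offset, at a median of 0.23, and 3 with library size alone. Without one library the count was 2 without iTreg mutant 1 or iTreg mutant 2, 1 without iTreg WT 1 or iTreg WT 2, 6 without nTreg WT 1 or nTreg WT 3 and 5 without nTreg WT 2. Their summed level in mutant 4, 47620 CPM, was below that of WT 3, 48950 CPM, so the groups overlapped in the sum. mt-Cytb, a complex III subunit, was at 3137, 2923 and 3733 CPM in WT and 5472, 5135 and 4201 CPM in the mutant (0.60 ± 0.12, adjusted p = 0.00458). mt-Nd6, the complex I subunit on the other strand, was at 51.5, 55.3 and 70.5 CPM in WT and 219, 113 and 83.2 CPM in the mutant (1.23 ± 0.30, adjusted p = 0.0122), with mutant 1 far above the rest and a change of 0.73 without it. The call of mt-Nd6 was lost without iTreg WT 1 (adjusted p = 0.0631) and iTreg WT 2 (adjusted p = 0.0547).

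For the 68 nuclear genes of oxidative phosphorylation, 20 were higher and 5 lower (13 higher and 3 lower with the GC offset), but 7 higher and 10 lower with library size alone. The higher count was 3 without iTreg mutant 1 or iTreg WT 2, 6 without iTreg mutant 2, 12 without iTreg mutant 4, 1 without iTreg WT 1 and 31 without nTreg mutant 1. Atp5j, a stalk subunit of ATP synthase, rose from 67.1, 67.4 and 73.01 CPM to 96.2, 90.5 and 87.7 CPM (0.40 ± 0.087, adjusted p = 0.00729), and Ndufs7, an iron-sulfur subunit of complex I, fell from 11.6, 11.7 and 10.2 CPM to 5.62, 6.21 and 8.29 CPM (-0.73 ± 0.15, adjusted p = 0.0066, and -0.42 with the GC offset). In glycolysis and the hypoxia response, 3 of 36 were higher and 5 lower, against 14% and 11.4% of all genes (3 higher and 0 lower with the GC offset). Gpi1, an early glycolytic enzyme, was called lower (-0.31 ± 0.067, adjusted p = 0.00698) and lost the call with the offset (-0.14, adjusted p = 0.129). Egln3, a prolyl hydroxylase that hypoxia induces, was at 17.96, 15.97 and 18.4 CPM in WT and 45.7, 35.3 and 23.6 CPM in the mutant (0.998 ± 0.23, adjusted p = 0.0105). The call of Egln3 was lost without iTreg mutant 1 (adjusted p = 0.0523) and iTreg WT 2 (adjusted p = 0.0511). For oxidative phosphorylation, the lower count was 2 without iTreg mutant 1, 3 without iTreg mutant 2, iTreg WT 1, iTreg WT 2 or iTreg WT 3 and 10 without nTreg mutant 1. In oxidative phosphorylation, there were 28 higher and 9 lower in the iTreg libraries alone. For glycolysis and hypoxia, the higher count was 0 without iTreg mutant 1 or iTreg WT 2, 1 without iTreg mutant 2, iTreg WT 1 or nTreg WT 2 and 10 without nTreg mutant 1. In glycolysis and hypoxia, the lower count was 1 without iTreg mutant 1 or iTreg WT 1 and 2 without iTreg mutant 2, iTreg WT 2 or iTreg WT 3. Among glycolysis and hypoxia, there were 10 higher and 6 lower in the iTreg libraries alone.

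**Figure D3:**
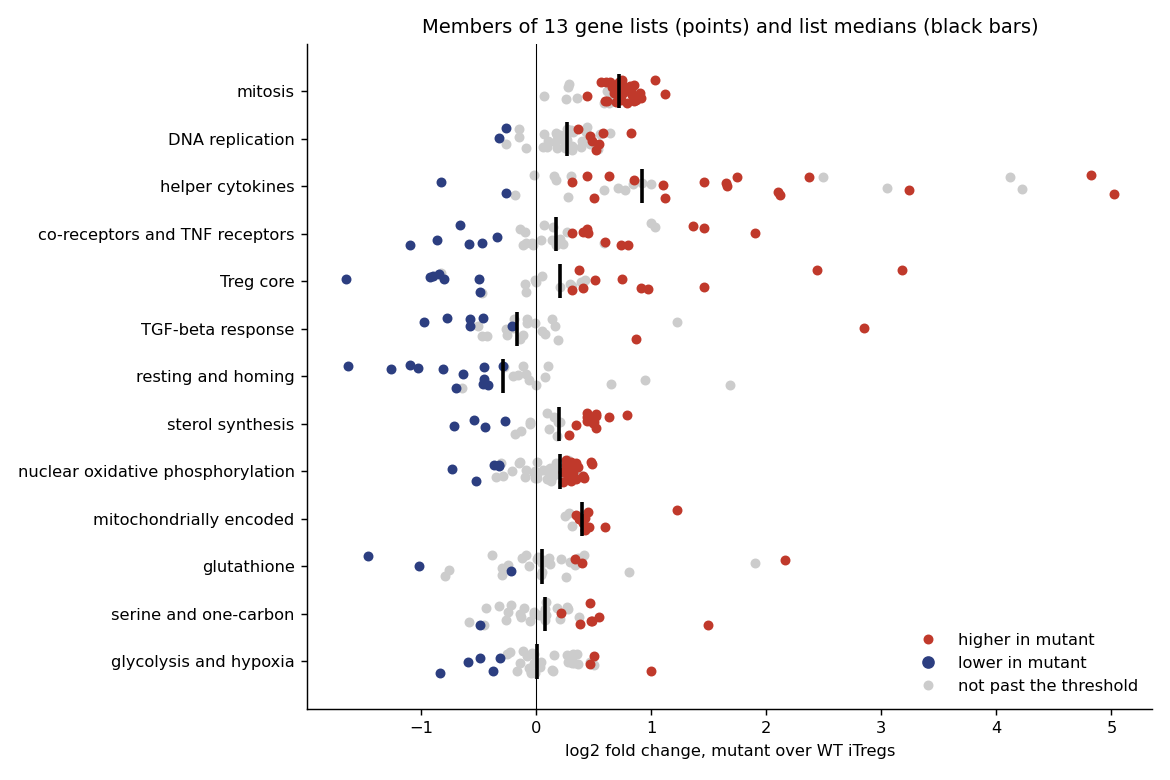
Log2 fold change of mutant over WT iTregs (horizontal axis) of each tested member of 13 gene lists (points; red higher, blue lower, grey not past the threshold), with the list median as a black bar. Mitosis lies to the right with 30 of 40 called higher and a median of 0.72, and resting and homing to the left with 12 of 25 called lower and a median of -0.29.

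The largest increases were taken among genes with at least 5 CPM in one group and no overlap between groups. For an increase that level had to be met in the mutant, so genes low in WT could enter. Gap43, known as a growth protein of neurons, was at 0.748, 0.544 and 1.27 CPM in WT and 9.15, 6.25 and 12.7 CPM in the mutant (3.44 ± 0.35, adjusted p = 0.000374). Scin, an actin-severing protein, was at 1.14, 1.95 and 2.999 CPM in WT and 5.77, 5.65 and 27.7 CPM in the mutant (2.67 ± 0.59, adjusted p = 0.00808), and Sema6d, a semaphorin, at 0.689, 1.32 and 1.19 CPM and 3.06, 3.33 and 11.6 CPM (2.48 ± 0.53, adjusted p = 0.00661). In both mutant 4 stood far above the other mutant libraries, as for Penk and Csf2, and without it the changes were 1.48 for Scin and 1.57 for Sema6d. C3, the central complement protein, was at 6.55, 6.16 and 11.7 CPM in WT and 27.7, 21.03 and 59.3 CPM in the mutant, also highest in mutant 4 (2.15 ± 0.43, adjusted p = 0.00486). Another set was highest in mutant 1. Iigp1, an interferon-induced GTPase, was at 3.41, 5.12 and 5.27 CPM in WT and 46.04, 15.1 and 9.23 CPM in the mutant (2.35 ± 0.51, adjusted p = 0.0073), a change of 1.40 without mutant 1. Gja5, a gap junction protein, was at 3.05, 2.004 and 2.49 CPM in WT and 18.6, 9.38 and 6.83 CPM in the mutant (2.21 ± 0.34, adjusted p = 0.0014). Ly6a, the surface protein Sca-1, was at 0.718, 1.15 and 1.38 CPM in WT and 8.501, 2.95 and 3.55 CPM in the mutant (2.20 ± 0.64, adjusted p = 0.0266). The call of Ly6a was lost without iTreg mutant 1 (adjusted p = 0.123), iTreg WT 1 (adjusted p = 0.101) and iTreg WT 2 (adjusted p = 0.0776). AA467197 (2.39 ± 0.53) and Tmeff1 (2.17 ± 0.31) were highest in mutant 1 as well. With Penk, Csf2 and Cd36 these make up the 12 largest increases.

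The largest decreases were taken by the same rule, and for a decrease the level of at least 5 CPM had to be met in WT. Their WT levels were therefore bounded from below by the choice. Pyroxd2, a mitochondrial oxidoreductase, went from 46.5, 32.4 and 20.6 CPM to 4.82, 7.28 and 1.7 CPM (-2.85 ± 0.40, adjusted p = 0.001). Pou6f1, a POU-domain transcription factor, went from 67.3, 54.2 and 32.1 CPM to 14.2, 19.9 and 9.08 CPM (-1.83 ± 0.27, adjusted p = 0.00111). Vipr1, a receptor for vasoactive intestinal peptide, went from 49.03, 45.98 and 35.8 CPM to 11.7, 17.4 and 14.1 CPM (-1.60 ± 0.22, adjusted p = 0.000883). In each of these genes WT 3 was the lowest WT library and mutant 2 the highest mutant one, so the groups came closer there without touching. Bcl9l, a cofactor of beta-catenin, fell from 25.6, 25.3 and 21.8 CPM to 7.74, 9.196 and 9.197 CPM (-1.48 ± 0.17, adjusted p = 0.000442). Slc14a1, a urea transporter, fell from 11.2, 9.13 and 7.701 CPM to 2.88, 4.05 and 2.94 CPM (-1.50 ± 0.18, adjusted p = 0.000521). Xkrx (-1.87 ± 0.31), Ncmap (-1.55 ± 0.32) and the cyclic nucleotide phosphodiesterase Pde2a (-1.49 ± 0.27) completed the group with Foxp3, Acvr1c, Rasgrp2 and Itgam. Itgam, the integrin CD11b, was at 7.69, 6.84 and 5.35 CPM in WT and 2.32, 2.92 and 1.61 CPM in the mutant (-1.54 ± 0.43, adjusted p = 0.0231). The call of Itgam was lost without iTreg mutant 1 (adjusted p = 0.0699), iTreg mutant 4 (adjusted p = 0.0726), iTreg WT 1 (adjusted p = 0.082) and iTreg WT 2 (adjusted p = 0.067).

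The increases with the smallest p-values among genes of at least 50 CPM belonged to varied functions. Serpinb6a, an intracellular inhibitor of serine proteases, was at 19.97, 22.3 and 27.1 CPM in WT and 85.98, 61.5 and 79.4 CPM in the mutant (1.71 ± 0.14, adjusted p = 0.000152). Sh3bgrl, a small thioredoxin-fold protein, was at 89.05, 104 and 138 CPM in WT and 299, 268 and 386 CPM in the mutant (1.52 ± 0.16, adjusted p = 0.000294). Ell2, an elongation factor of RNA polymerase II, was at 17.1, 18.8 and 21.97 CPM in WT and 46.7, 46.1 and 63.4 CPM in the mutant (1.43 ± 0.13, adjusted p = 0.000157). All 3 rose at least 2-fold, and no library came near the other group. Plod2, a collagen lysyl hydroxylase, rose by 1.34 ± 0.14, and Hmgn5, a nucleosome-binding protein, by 1.07 ± 0.096. Pde7a, which degrades cyclic AMP, rose by 0.90 ± 0.079, the lipid scramblase Plscr1 by 0.87 ± 0.081, and the GTPase-activating protein Arhgap21 by 0.90 ± 0.10. Cldnd1 (0.94 ± 0.098) and the calcium-dependent lipid-binding protein Cpne3 (0.84 ± 0.086) complete, with Abcd3 and Sla, the 12 increases, with adjusted p between 0.000152 and 0.000363. Among the matching decreases, Sun2, which ties the nucleus to the cytoskeleton, fell from 313, 282 and 266 CPM to 156, 168 and 149 CPM (-0.87 ± 0.096, adjusted p = 0.000346). The actin-binding protein Twf2 changed by -0.83 ± 0.089, the Arf regulator Agap2 by -0.71 ± 0.08 and Tmem131l by -0.58 ± 0.066. With the GC offset the value of Agap2 was -0.27 and that of Tmem131l -0.60, so the first shrank by more than 1.5 times and the second did not shrink.

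Interferon response genes were split, 8 of 50 higher and 5 lower (8 higher and 5 lower with the GC offset). For this and the other lists of the paragraph, the shares over all genes were 14% higher and 11.4% lower. Ifih1, the double-stranded RNA sensor MDA5, rose from 7.87, 8.302 and 13.5 CPM to 17.8, 16.6 and 24.4 CPM (0.99 ± 0.19, adjusted p = 0.00458). Ifi208, one of a cluster of similar DNA-sensor genes whose reads can align to more than one member, was at 5.597, 5.93 and 5.35 CPM in WT and 2.68, 3.58 and 2.46 CPM in the mutant (-0.95 ± 0.12, adjusted p = 0.000765). In the unfolded protein response, 5 of 30 were higher and 1 lower (3 higher and 1 lower with the GC offset), among them Canx, the chaperone calnexin (0.48 ± 0.12, adjusted p = 0.0145, and 0.31 with the GC offset). The call of Canx was lost without iTreg mutant 1 (adjusted p = 0.0544), iTreg WT 1 (adjusted p = 0.0773) and iTreg WT 2 (adjusted p = 0.0556). In lysosome and autophagy genes, 4 of 35 were higher and 6 lower (5 higher and 6 lower with the GC offset). Gabarapl1, which decorates autophagosomes, rose from 18.02, 20.1 and 22.4 CPM to 32.5, 31.1 and 35.7 CPM (0.71 ± 0.098, adjusted p = 0.000944), and Lamp2, a lysosome membrane protein, from 44.2, 45.5 and 50.96 CPM to 72.9, 71.3 and 65.96 CPM (0.58 ± 0.081, adjusted p = 0.000969). Of 17 genes of DNA methylation, which sets the stability of Foxp3 expression, 2 were higher and 2 lower (1 higher and 2 lower with the GC offset). Tet3, which oxidizes methylcytosine, was lower (-0.53 ± 0.12, adjusted p = 0.0102), a call that the GC offset did not keep (-0.21, adjusted p = 0.223). For interferon response genes, the higher count was 5 without iTreg mutant 1 or iTreg WT 2 and 4 without iTreg WT 1. In interferon response genes, the lower count was 2 without iTreg mutant 2, iTreg mutant 4, iTreg WT 1, iTreg WT 2, iTreg WT 3, nTreg WT 1 or nTreg WT 2, 8 without nTreg mutant 1 and 3 without nTreg WT 3. Among interferon response genes, there were 7 higher and 8 lower with library size alone. For the unfolded protein response, the higher count was 1 without iTreg mutant 1, iTreg WT 1 or iTreg WT 2, 2 without iTreg mutant 2, 3 without iTreg WT 3, 11 without nTreg mutant 1 and 8 without nTreg mutant 4. In the unfolded protein response, the lower count was 0 without iTreg mutant 1, iTreg mutant 2, iTreg WT 1 or iTreg WT 2. Among the unfolded protein response, there were 14 higher and 1 lower in the iTreg libraries alone. For lysosome and autophagy genes, the higher count was 2 without iTreg WT 1. In lysosome and autophagy genes, the lower count was 10 without nTreg mutant 1. Among lysosome and autophagy genes, there were 4 higher and 10 lower with library size alone and 4 higher and 11 lower in the iTreg libraries alone. For DNA methylation genes, the higher count was 1 without iTreg mutant 1, iTreg mutant 2, iTreg WT 2, iTreg WT 3, nTreg mutant 2, nTreg WT 2 or nTreg WT 3 and 0 without iTreg WT 1. In DNA methylation genes, the lower count was 4 without nTreg mutant 1. Among DNA methylation genes, there were 1 higher and 4 lower with library size alone.

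Markers of other cells were scarce in the iTregs. Many of them passed the filter on low counts through the nTregs, so counts are given from the iTreg libraries fitted alone. There 5 of 16 B cell markers were tested and Ighm was called lower (-0.50 ± 0.093, adjusted p = 0.00505), with a marker sum of 64.5 to 77.7 CPM in WT and 53.1 to 59.2 CPM in mutant libraries. In the model of all 12 libraries Ighm was at -0.45 ± 0.15 (adjusted p = 0.0449; -0.44 and adjusted p = 0.0773 with the GC offset). The call of Ighm was lost without iTreg mutant 1 (adjusted p = 0.0537), iTreg mutant 2 (adjusted p = 0.103), iTreg mutant 4 (adjusted p = 0.135), iTreg WT 1 (adjusted p = 0.0884), iTreg WT 2 (adjusted p = 0.0856), iTreg WT 3 (adjusted p = 0.126), nTreg WT 1 (adjusted p = 0.057), nTreg WT 2 (adjusted p = 0.0574) and nTreg WT 3 (adjusted p = 0.0538). Of 19 myeloid and dendritic markers 6 were tested and Itgam was called lower (-1.58 ± 0.22, adjusted p = 0.00219), with a sum of 26.2 to 26.5 CPM in WT and 23.0 to 31.8 CPM in the mutant. Of 12 CD8 and NK markers 7 were tested and Klrc1, an NK receptor chain, was called higher (1.35 ± 0.20, adjusted p = 0.00252), with a sum of 38.0 to 52.2 CPM in WT and 49.2 to 65.9 CPM in the mutant. Of 7 gamma-delta T markers 5 were tested and Trdc, the constant region of the delta chain, was called lower (-0.88 ± 0.21, adjusted p = 0.0141), with a sum of 10.7 to 16.4 CPM in WT and 6.98 to 13.4 CPM in the mutant. Klrc1 and Trdc, named after their values were seen, were not called in the model of all 12 libraries. The erythroid and platelet markers summed to 1.70 to 2.29 CPM in WT and 1.32 to 1.56 CPM in the mutant, too low for a test of 6 of the 7. The sums take in all markers kept in the model of all 12 libraries, 16 for B cells, many of them kept through the nTregs. The sums of the B cell and the erythroid and platelet markers did not overlap between the groups, both lower in the mutant, while the other sums overlapped. A lack of overlap was also seen for 46.5% of all genes, and the erythroid and platelet sums were very low. The part of these cells in the results was not tested. The defining macrophage gene Lyz2 was at 0 in 4 of the 6 libraries and at 0.054 CPM or less in mutant 4 and WT 3. CD4 T cell markers summed to 2637 to 2788 CPM in WT and 2484 to 2659 CPM in mutant libraries, so markers of CD4 T cells were present. These 10 markers do not tell Tregs from other CD4 T cells. Of these 10 genes, Lck, Trbc1 and Trbc2 were called lower, by -0.28, -0.28 and -0.28, and Cd2 higher (0.36 ± 0.11, adjusted p = 0.0363; 1 higher and 3 lower with the GC offset). The call of Cd2 was lost without iTreg mutant 1 (adjusted p = 0.163), iTreg mutant 2 (adjusted p = 0.0647), iTreg WT 1 (adjusted p = 0.133), iTreg WT 2 (adjusted p = 0.136), nTreg WT 1 (adjusted p = 0.0503) and nTreg WT 2 (adjusted p = 0.0521). Scaled by library size alone, Cd2 was not called (0.27), and without mutant 1 its change was 0.22. With the GC offset Lck stood at -0.13 (adjusted p = 0.0949), and Trbc1 and Trbc2 share reads through their near-identical sequences. For the CD4 T cell markers, the higher count was 0 without iTreg mutant 1, iTreg mutant 2, iTreg WT 1, iTreg WT 2, nTreg WT 1 or nTreg WT 2 and 2 without iTreg mutant 4. In the CD4 T cell markers, the lower count was 6 without nTreg mutant 1. Among the CD4 T cell markers, there were 0 higher and 6 lower with library size alone and 1 higher and 6 lower in the iTreg libraries alone.

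The genotype effect was also set against that in Tregs taken from the animal. In those libraries the B cell markers summed to between 1080 and 1953 CPM, above every iTreg library. The CD8 and NK markers summed to 1188, 175 and 157 CPM in mutant and 75.9, 75.4 and 67.6 CPM in WT nTregs, so they moved with the genotype and nTreg mutant 1 stood far apart. The erythroid and platelet markers ranged from 181 to 902 CPM in mutant and from 113 to 390 CPM in WT nTregs. The part of these cells in the nTreg effects was not tested, and the differences are also given without nTreg mutant 1. The difference between the effects (iTreg minus nTreg) passed the test for 2392 genes (13.3%), and for 45 of the 115 genes named here; without nTreg mutant 1 all 45 passed with the same sign, and 58 of the 115 passed. Over all genes 34.9% were called in nTregs. Of 114 named genes called in iTregs, 59 were also called in nTregs and 55 of those in the same direction. Most named genes were chosen by their iTreg values, which also enter the difference between the effects. The shares among named genes therefore cannot be compared with those over all genes. Foxp3 was at -1.70 ± 0.15 in nTregs, and its difference of 0.04 ± 0.21, adjusted p = 0.933, did not pass. Gclc fell more in iTregs (-0.81 ± 0.073 in nTregs; difference -0.65 ± 0.10, adjusted p = 0.00381). Cd36 and Scd1 rose in iTregs but were at -0.60 ± 0.39 and -0.51 ± 0.27 in nTregs, and these differences passed (3.27 ± 0.58, adjusted p = 0.00576, and 2.32 ± 0.39, adjusted p = 0.00482). Tigit and Cd86 were at 0.25 ± 0.091 and 0.17 ± 0.11 in nTregs, differences of 1.20 ± 0.15, adjusted p = 0.00164, and 1.19 ± 0.17, adjusted p = 0.00296. Klf2 was at -0.32 ± 0.15 in nTregs (difference -0.94 ± 0.21, adjusted p = 0.0157), whereas S1pr1 was at -0.59 ± 0.11 there and its difference did not pass (-0.04 ± 0.15, adjusted p = 0.896). In the other direction, Asns rose more in nTregs (3.09 ± 0.16; difference -2.53 ± 0.21, adjusted p = 0.000292), and Shmt2 was higher there (0.83 ± 0.11) and lower in iTregs (difference -1.32 ± 0.15, adjusted p = 0.00156). The GC tilt ran in opposite directions in the cell types, and the number of genes whose effects differed was 1386 with the GC offset. With library size alone it was 2911, and the share with a more positive effect in iTregs went from 46% to 17.8%. Without nTreg mutant 1 the differences were -0.19 ± 0.15, adjusted p = 0.414, for Foxp3, -0.69 ± 0.10, adjusted p = 0.00162, for Gclc and 2.93 ± 0.56, adjusted p = 0.00539, for Cd36. For Klf2 the difference was then -1.15 ± 0.18, adjusted p = 0.00237, for Asns -2.52 ± 0.20, adjusted p = 9.01e-05, and for Shmt2 -1.29 ± 0.13, adjusted p = 0.000436.

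**Figure D4:**
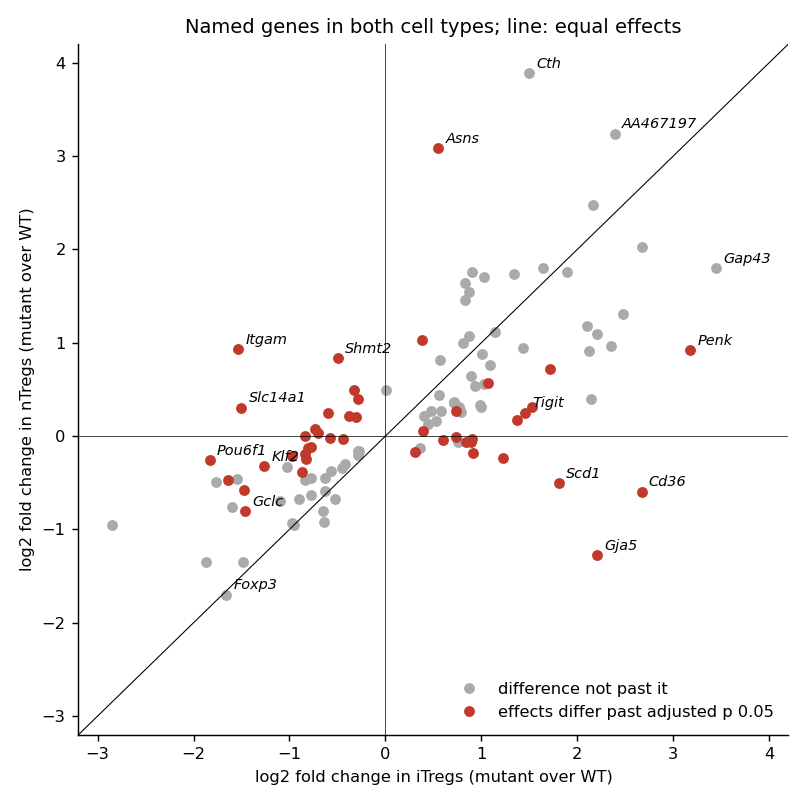
Log2 fold change of mutant over WT in iTregs (horizontal axis) and nTregs (vertical axis) of the 115 named genes; red points are the 45 whose effects differ past an adjusted p of 0.05, and the diagonal marks equal effects. Foxp3 lies near the diagonal at -1.66 and -1.70, Cd36 and Scd1 lie far below it, and Asns lies far above it.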

How the data were processed

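RNA was measured in 12 libraries, of which the 6 iTreg libraries are compared here. The deposited values are integer counts per gene, used as deposited. Per the file headers, the authors counted with featureCounts 1.5.2 on Ensembl genes of GRCm38, reverse-stranded, with multi-mapping reads counted at each alignment. The submitters' processing notes name bcl2fastq 2.18.0.12 for read conversion and STAR 2.5.2b for alignment. Of 49671 genes, 49326 matched a symbol.

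Genes kept by filterByExpr (17977) were scaled by TMM and tested with edgeR 4.0.16 (R 4.3.3) quasi-likelihood F-tests, two-sided, with 1 mean per group over all 12 libraries (8 residual degrees of freedom) and Benjamini-Hochberg adjustment. The fit was tested on simulated data. GC content came from GENCODE transcripts and was known for 99.5% of tested genes; the GC offset is a lowess per library (span 0.4). Promoter sequences are from RefSeq (GRCm38.p6).

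Members and gene lists were chosen with earlier results of these data known. Named genes were Gclc, Foxp3 and Gclm, the 12 largest changes per direction (at least 5 CPM in a group, groups apart), the 12 smallest p per direction (at least 50 CPM), and up to 4 per list; some of these are not reported here. Alternatives were RLE scaling, library size alone, 2 filters, DESeq2 1.42.0, iTregs alone, the replicate number as a block, each library left out, and the GC offset (added).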

Additional observations from a re-analysis of the deposited data

Results flagged for a closer look

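For 45 of the 115 named genes the genotype effect in iTregs differed from that in nTregs by edgeR's interaction test (adjusted p below 0.05, 3 libraries in each of 4 groups); values are the iTreg minus the nTreg log2 fold change. Among lipid genes the difference was 3.27 for Cd36, 2.32 for Scd1, 1.09 for Abca1, 0.75 for Abcd3, -0.42 for Scap and -0.68 for Fasn. Among surface receptors it was 1.20 for Tigit, 1.19 for Cd86, 0.48 for Il2ra, 0.47 for Cd226, -0.85 for Il10ra, -0.69 for S1pr4 and -2.47 for Itgam. Among signalling genes it was -1.16 for Rasgrp2, -0.76 for Rasa3, -0.65 for Pip5k1c, -0.59 for Jak3, -0.74 for Agap2, 0.93 for Pde7a and 0.96 for Sla. Among transcription and nuclear genes it was -0.94 for Klf2, -1.57 for Pou6f1, -0.90 for Bcl9l, -0.48 for Sun2 and 0.51 for Hmgn5. Among metabolic, redox and mitochondrial genes it was -2.53 for Asns, -1.32 for Shmt2, -0.65 for Psat1, -0.65 for Gclc, 0.35 for Glo1, -0.85 for Ftl1, -0.51 for Gpi1, -0.80 for Ndufs7, 1.46 for mt-Nd6 and 0.64 for mt-Cytb. For the remaining genes it was 3.48 for Gja5, 2.26 for Penk, 1.22 for Sh3bgrl, 0.996 for Serpinb6a, 0.91 for Cpne3, -0.58 for Ltb, -0.56 for Tmem131l, -0.64 for Twf2, -0.81 for Pold1 and -1.80 for Slc14a1.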

How the results depend on the processing

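Of 114 named genes called in iTregs, 113 kept their call under the other scalings, filters, DESeq2 and the iTreg libraries alone. The exception was Cd2 with library size alone. With each library left out 95 kept it, with the replicate block 107 and with the GC offset 105. Throughout, 89 kept it. Most named genes were chosen for large changes or small p-values, so these shares do not hold for all calls. Of all 4561 calls, 2420 were kept with the GC offset and 2859 with the replicate block. Library size alone kept 3650, and the fit without iTreg WT 1 kept 1751. None of the 4561 calls reversed in direction while staying called. With 1 library left out, calls ranged from 1770 without iTreg WT 1 to 6260 without nTreg mutant 1 (773 to 3164 higher, 997 to 3096 lower), calls of at least 2-fold from 355 without iTreg WT 1 (405 without iTreg WT 2) to 824 without iTreg WT 3, and genes whose effects differed between cell types from 1104 to 3216, the lowest without nTreg WT 2 and the next 5 without nTreg WT 1, iTreg WT 2, mutant 1, mutant 2 and WT 1. Library size alone gave 1606 higher calls. The GC offset left 1386 genes whose effects differed. Libraries of the same replicate number showed no common deviation across genes (correlations of same-numbered deviations were -0.064 to 0.050). This does not tell whether equal numbers mark a shared animal, culture or batch. With the replicate number as a block there were 3036 calls, 1677 higher and 1359 lower, and 1471 genes whose effects differed. Pold1 changed sign with the GC offset (0.039). Gclm, called in no fit, stood at -0.008 with RLE scaling and DESeq2, -0.082 with library size alone, -0.039 with the 1 CPM filter, -0.038 in iTregs alone and -0.109 with the GC offset, and at -0.11 to 0.074 with 1 library left out. The cause of these changes was not tested, and the leave-one-out fits also had fewer libraries. Depth was alike across the iTreg libraries (33534022 to 38020219 counts); of 3893 genes under 1 CPM, 137 were called higher and 111 lower.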

Other observations

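Chemokine receptors and integrins, which place T cells in tissues, were split, with 7 of 34 genes higher and 8 lower (6 higher and 8 lower with the GC offset). Among genes of MYC and ribosome biogenesis, which support growth, 4 of 35 were higher and 4 lower (with the GC offset a single call was left, a lower one). For both lists and for the gene classes below, the shares over all genes were 14% higher and 11.4% lower. For chemokine receptors and integrins, the higher count was 4 without iTreg WT 1 or iTreg WT 2. For MYC and ribosome biogenesis, the higher count was 2 without iTreg mutant 1 or iTreg mutant 4, 1 without iTreg mutant 2, iTreg WT 1 or iTreg WT 2 and 7 without nTreg mutant 1. In MYC and ribosome biogenesis, the lower count was 0 without iTreg mutant 1, iTreg mutant 2, iTreg WT 1 or iTreg WT 2 and 8 without nTreg mutant 1. Among MYC and ribosome biogenesis, there were 6 higher and 7 lower in the iTreg libraries alone. Among long non-coding genes 68 of 1125 were higher and 100 lower, and among protein-coding genes 2102 of 12950 were higher and 1684 lower. Of 2687 pseudogenes tested, 320 were higher and 197 lower. Multi-mapping reads were counted at each alignment, so calls of pseudogenes can rest on reads that also align to other genes.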
